A study of Rattus norvegicus with 30 samples.

Results

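The genes described here encode the working parts of the lysosome and of its proton pump, measured in the lungs of rats that had inhaled copper oxide nanoparticles. A list of 38 genes was set by name: acid proteases, glycosidases, lipid-handling proteins, membrane proteins, acid phosphatases, subunits of the vacuolar proton pump, the transcription factor Tfeb and the autophagy receptor Sqstm1. All 38 were measured on the array and all 38 passed the filter on dim probes, out of 18421 genes tested. Membership was by name and used no measured value, although the list was proposed with earlier results of these data known.

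Lysosomes are acidic compartments in which enzymes degrade proteins, sugar chains and lipids taken up from outside the cell or delivered by autophagy. The vacuolar proton ATPase pumps protons into the compartment and so keeps its enzymes active. In the lung, alveolar macrophages are rich in lysosomes and clear inhaled particles into them, and Tfeb is known as a transcription factor that switches on many lysosomal genes.

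Male Wistar rats of the outbred strain HsdCpb:WU, bought at 8 weeks of age, breathed particles, or air alone, through the nose on 5 consecutive days. The low dose was 3.3 mg/m3 and the high dose 13.2 mg/m3, each given as the equivalent of 6 hours of exposure a day, and whole lung was taken on study day 6, which is day 1 after the last exposure, or on study day 28, which is day 22 after it. There were 5 rats in each of 6 groups. Rats 1 to 5 breathed air, rats 47 to 51 the low dose and rats 75 to 79 the high dose, and these were sampled on day 6. Rats 6 to 10 (air), 52 to 56 (low) and 80 to 84 (high) were sampled on day 28. No rat was sampled at both days, so a difference between days compares different animals. The tissue is whole lung, in which more cells of a type and more RNA per cell cannot be told apart.

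Each rat had its own Agilent array, with lung RNA in the Cy5 channel and the same reference RNA in the Cy3 channel of every array. A level below is the log2 ratio of lung over reference for 1 rat, and it ranks rats for a gene but not genes against each other. A difference is the log2 fold change between group means from limma, given with its standard error, and a gene rose or fell where the Benjamini-Hochberg adjusted p over all 18421 genes was under 0.05. The median Cy5 intensity of an array ran from 216 to 432 and the share of probes well above background from 59.5% to 68.4%. Lung markers such as Sftpc, the surfactant protein of alveolar type II cells, and Ager, a marker of type I cells, were above background on every array. Markers of heart muscle stood apart in 4 rats, with a mean log2 ratio of 4.80 in air rat 4 and 2.85 in low-dose rat 49 of day 6, and of 2.14 in high-dose rat 83 and 2.06 in low-dose rat 54 of day 28; the other rats were at 0.87 or less. Without these 4 rats, an alternative chosen after seeing the data, 23 members were called at the high dose and 8 at the low dose on day 6, against 24 and 9 with them. Without air rat 4 alone the counts were 22 and 6.

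On day 6 the high dose was accompanied by higher expression of most of these genes. Of the 38 members, 23 rose, 1 fell and 14 did not pass the threshold, while 36.5% of all genes tested were called in this comparison, 21% higher and 15.5% lower. The median difference was 0.48 over the members and 0.01 over all genes. In 20 members every high-dose rat lay above every air rat, which was so for 16.8% of all genes. The balance of all called genes moved with the scaling: 57.6% of them were higher with loess, 43.5% with median centring, 47.5% on the Cy5 channel alone and 46% in the authors' deposited table. Under the last 3 of these the members' median was 0.41, 0.39 and 0.43, and 17, 23 and 22 members were called. Calls among all genes were 5244, 7191 and 6891 in the same order, against 6719 with loess.

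**Figure D1:**
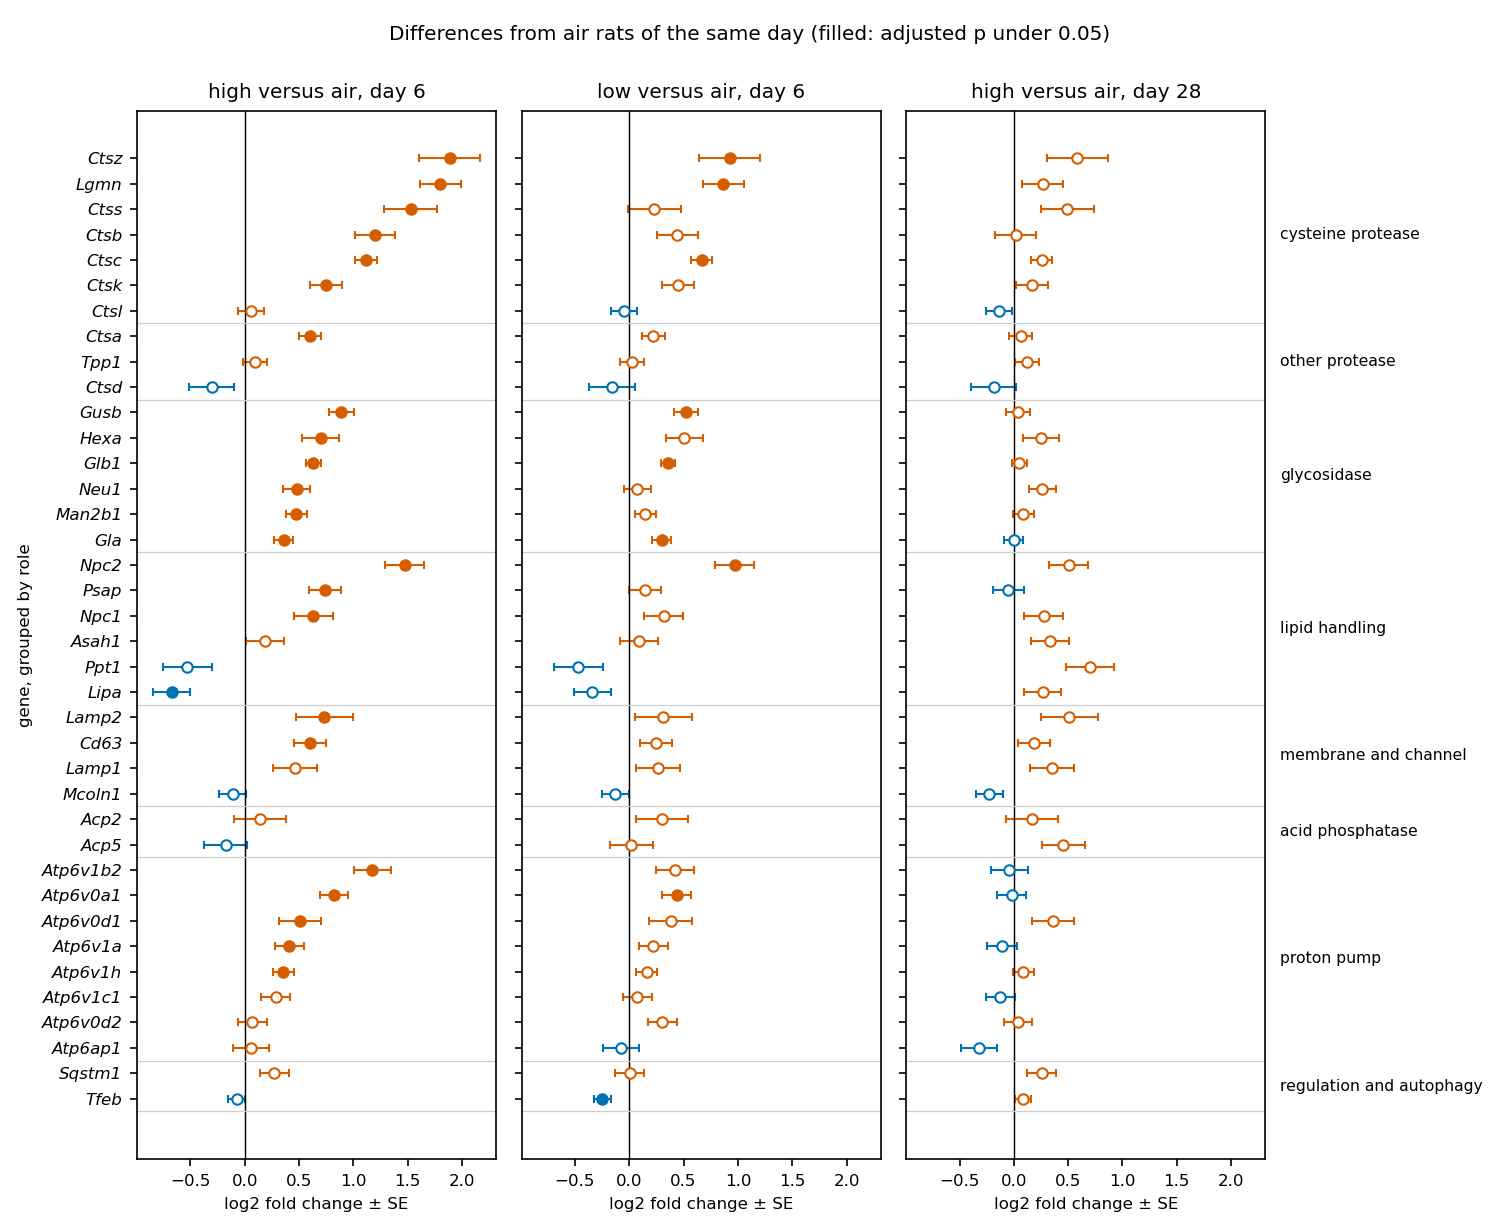
Log2 fold change with its standard error (x axis) for each of the 38 genes (y axis, grouped by role) in 3 comparisons with air rats of the same day, 5 rats a group. Filled points passed an adjusted p of 0.05 (limma) and open points did not. In the left panel 23 genes lie to the right as filled points and Lipa to the left, in the middle panel 8 lie to the right and Tfeb to the left, and the right panel, for day 28, holds no filled point.

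The cysteine proteases showed the highest median difference among the roles on day 6, 1.20 at the high dose over its 7 members, of which 6 rose. These enzymes (cathepsins B, C, K, L, S and Z, and legumain) cut proteins at acid pH. Ctsz, which encodes cathepsin Z, a carboxypeptidase, had log2 ratios of -1.31, -1.07, -1.17, -1.72 and -1.48 in air rats 1 to 5. They were -0.77, 0.21, -1.02, -0.53 and -0.03 in low-dose rats 47 to 51, and 0.23, 0.06, 1.13, 0.38 and 0.88 in high-dose rats 75 to 79. Every exposed rat of day 6 lay above every air rat, and the low- and high-dose rats overlapped only through rat 48. The difference was 1.89 ± 0.28 at the high dose (3.70-fold, adjusted p = 4.62e-06) and 0.92 ± 0.28 at the low dose (adjusted p = 0.0421). On day 28 the air rats read -2.12, -1.53, -1.35, -2.06 and -1.46, the low-dose rats -0.88, -1.46, -1.81, -1.43 and -0.79, and the high-dose rats -1.49, -0.67, -0.22, -1.24 and -1.98. All 3 groups of day 28 overlapped, and the high-dose difference of 0.58 ± 0.28 did not pass (adjusted p = 0.323).

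Lgmn, the asparagine-specific protease legumain, which also activates other cathepsins, was higher in every exposed rat of day 6 than in any air rat. Air rats read 0.17, 0.41, 0.10, -0.16 and 0.07, low-dose rats 0.87, 1.19, 0.66, 0.88 and 1.32, and high-dose rats 1.66, 1.17, 2.37, 1.93 and 2.47. High-dose rat 76 was the only one of its group inside the range of the low dose. Lgmn rose by 1.80 ± 0.19 at the high dose (adjusted p = 1.93e-08) and by 0.87 ± 0.19 at the low dose (adjusted p = 0.00383), and the step from low to high was 0.93 ± 0.19 (adjusted p = 0.00123). On day 28 the ranges were -0.10 to 0.27 in air rats, -0.20 to 0.45 at the low dose and -0.02 to 0.71 at the high dose, which overlap.

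Ctss, cathepsin S, which trims the invariant chain during antigen presentation, passed at the high dose and not at the low dose. Air rats read 0.38, 0.31, 0.48, 0.16 and 0.33, low-dose rats 0.51, 0.83, -0.08, 0.42 and 1.14, and high-dose rats 1.26, 0.93, 2.52, 1.89 and 2.70. The low-dose rats spread around the air rats, whereas every high-dose rat lay above the air range. The difference was 0.23 ± 0.24 at the low dose (adjusted p = 0.644) and 1.53 ± 0.24 at the high dose (adjusted p = 1.24e-05), and the step between the doses, 1.30 ± 0.24 (adjusted p = 0.000475), was the largest of any member. On day 28 Ctss ran from -0.21 to 0.61 in air rats, from 0.36 to 0.84 at the low dose and from 0.46 to 1.01 at the high dose.

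Ctsb, cathepsin B, an endo- and exopeptidase, had the brightest probe of the members, with a mean Cy5 intensity of 128418 and no saturated array. Its log2 ratios were 0.92, 1.03, 0.96, 0.87 and 1.06 in air rats, 1.49, 1.34, 1.24, 1.40 and 1.59 at the low dose and 1.77, 1.22, 2.70, 2.28 and 2.88 at the high dose. Every exposed rat exceeded every air rat, and high-dose rat 76 lay below the low-dose range while the other 4 lay above it. The difference was 1.20 ± 0.19 at the high dose (adjusted p = 9.17e-06) and 0.44 ± 0.19 at the low dose, which did not pass (adjusted p = 0.163). On day 28 the ranges were 0.78 to 1.45, 1.06 to 1.17 and 0.97 to 1.27 in air, low-dose and high-dose rats.

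Ctsc, cathepsin C, which activates the serine proteases of neutrophils and cytotoxic lymphocytes, had the smallest p of any member. Air rats read 1.73, 1.68, 1.90, 2.05 and 1.94, low-dose rats 2.28, 2.62, 2.53, 2.41 and 2.79, and high-dose rats 3.01, 2.87, 2.90, 2.89 and 3.21. No pair of these groups overlapped: each low-dose rat lay above each air rat and below each high-dose rat. Ctsc rose by 1.12 ± 0.10 at the high dose (2.17-fold, adjusted p = 9.07e-10), by 0.67 ± 0.10 at the low dose (adjusted p = 3.89e-05) and by 0.45 ± 0.10 from low to high (adjusted p = 0.00277). On day 28 the ranges were 1.64 to 2.01 in air rats, 1.64 to 2.02 at the low dose and 1.91 to 2.29 at the high dose. Of the last 2 cysteine proteases, Ctsk, best known for cutting bone collagen, rose by 0.75 ± 0.15 at the high dose (adjusted p = 0.000192), and Ctsl, cathepsin L, differed by 0.06 ± 0.12 (adjusted p = 0.733).

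**Figure D2:**
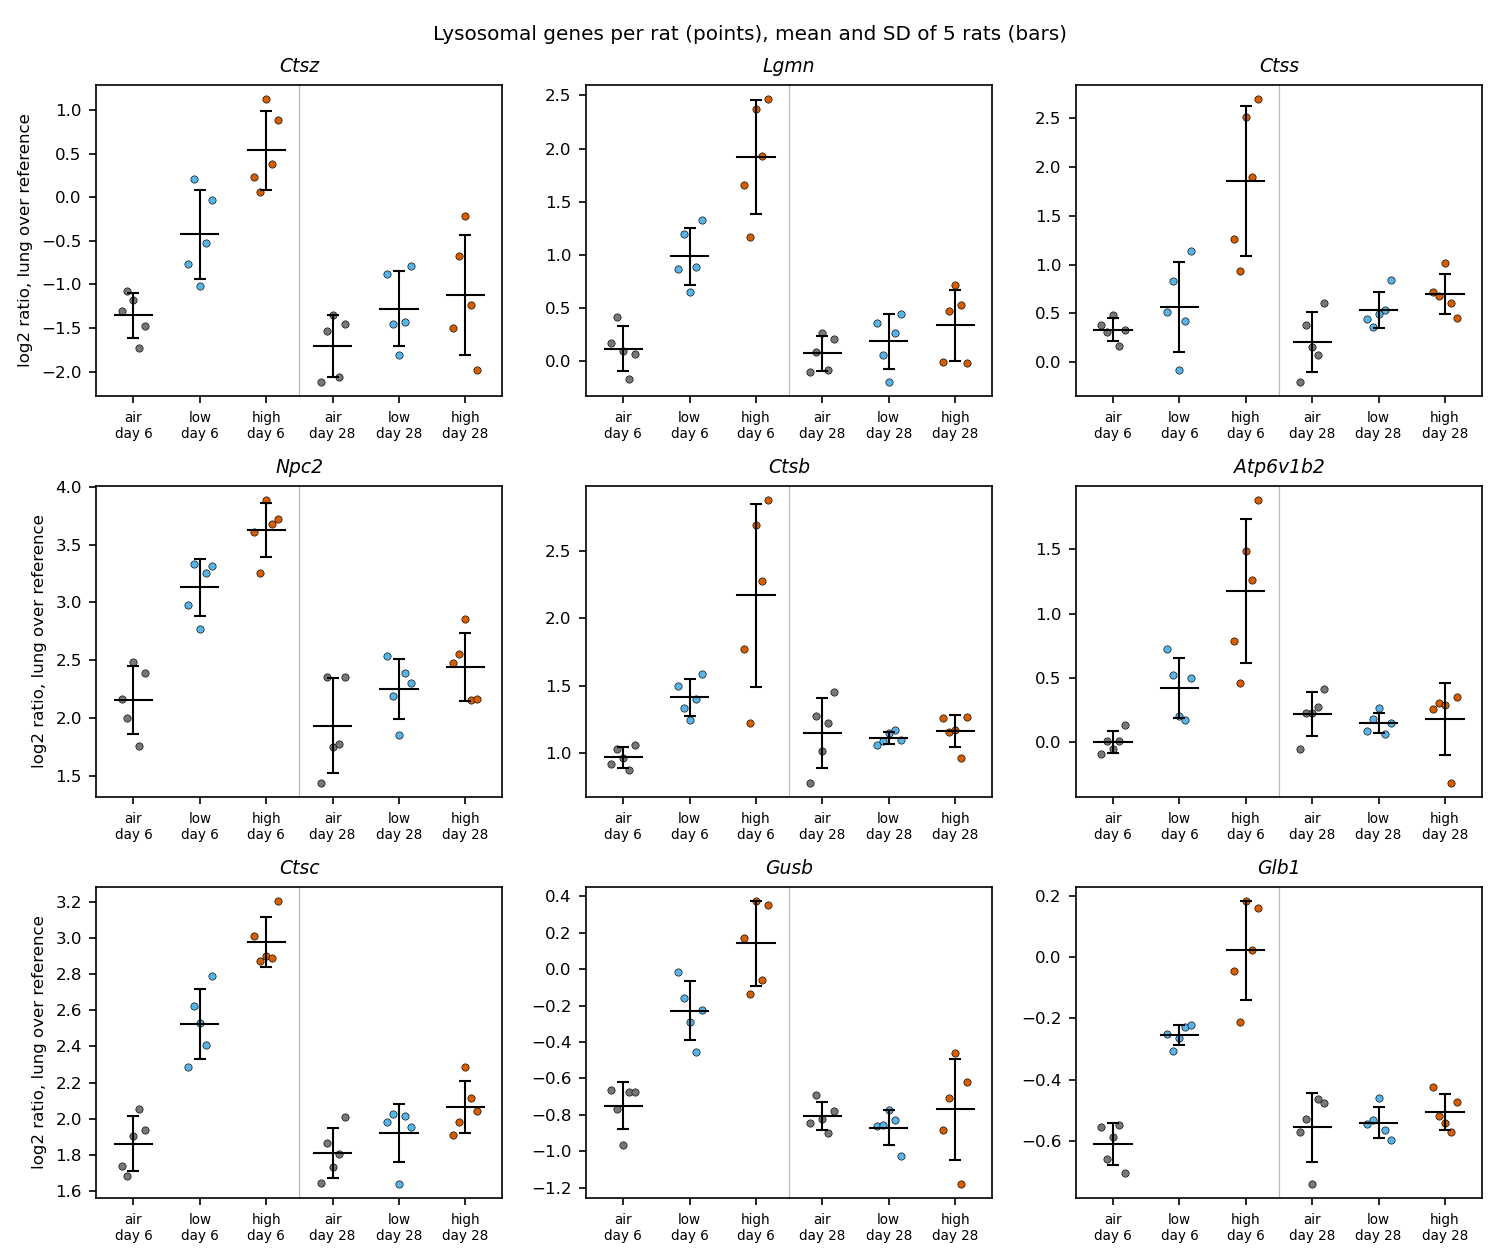
Log2 ratio of lung over reference (y axis) for each rat (points) in the 6 groups (x axis), with the mean and SD of 5 rats, for the 9 members with the smallest p. On day 6 Ctsc steps up from air to low to high dose without overlap, the Ctss values of the low-dose rats spread around those of the air rats, and on day 28 the 3 groups overlap in every panel.

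Outside the cysteine proteases, the 3 other proteases moved unequally. Ctsa, the serine carboxypeptidase that also protects neuraminidase and beta-galactosidase, rose by 0.60 ± 0.10 at the high dose (adjusted p = 3.23e-05). Tpp1, tripeptidyl peptidase, differed by 0.09 ± 0.11 and Ctsd, the aspartic protease cathepsin D, by -0.30 ± 0.21, and neither passed.

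All 6 glycosidases rose at the high dose on day 6, by 0.36 to 0.89. Gusb, beta-glucuronidase, read -0.66, -0.77, -0.97, -0.68 and -0.67 in air rats, -0.02, -0.16, -0.29, -0.45 and -0.22 at the low dose, and 0.17, -0.14, 0.38, -0.06 and 0.35 at the high dose. Both doses lay wholly above air, and the doses overlapped. It rose by 0.89 ± 0.11 at the high dose (adjusted p = 3.51e-07) and by 0.52 ± 0.11 at the low dose (adjusted p = 0.00287). Glb1, acid beta-galactosidase, read -0.55, -0.66, -0.59, -0.55 and -0.71 in air rats, -0.25, -0.31, -0.27, -0.23 and -0.22 at the low dose, and -0.05, -0.21, 0.18, 0.03 and 0.16 at the high dose. These 3 groups did not overlap, and the rises were 0.63 ± 0.07 at the high dose (adjusted p = 1.7e-08) and 0.36 ± 0.07 at the low dose (adjusted p = 0.000669).

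On day 28 both glycosidases had overlapping groups, with Gusb from -1.18 to -0.46 and Glb1 from -0.74 to -0.42 over all 15 rats of that day. The second probe of Gusb gave 0.74 ± 0.10 and that of Glb1 0.82 ± 0.17 at the high dose on day 6, both past the threshold. At the low dose the second Gusb probe passed (0.40 ± 0.10, adjusted p = 0.0167) and that of Glb1 did not (0.41 ± 0.17, adjusted p = 0.173). Between the doses the second Gusb probe passed (adjusted p = 0.0338) and that of Glb1 did not (adjusted p = 0.143). Hexa, the alpha subunit of beta-hexosaminidase, rose by 0.70 ± 0.17 (adjusted p = 0.00166), Neu1, the sialidase, by 0.48 ± 0.13 (adjusted p = 0.00364), and Man2b1, alpha-mannosidase, by 0.48 ± 0.10 (adjusted p = 0.000266). Gla, alpha-galactosidase A, rose by 0.36 ± 0.09 (adjusted p = 0.00189), from a dim probe that was well above background on 22 of 30 arrays and on 0 of 5 in the air rats of day 28, so that its value in that group is only a bound. The rises of Hexa and Neu1 did not pass with median centring.

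The lipid-handling proteins held the largest rise outside the proteases, in Npc2, and the only fall, in Lipa. Npc2, the soluble protein that takes cholesterol out of the lysosomal interior, read 2.16, 2.00, 2.49, 1.76 and 2.39 in air rats. It read 2.98, 3.33, 2.77, 3.25 and 3.32 at the low dose and 3.61, 3.25, 3.89, 3.67 and 3.72 at the high dose. All exposed rats of day 6 lay above all air rats. The rise was 1.47 ± 0.18 at the high dose (2.77-fold, adjusted p = 1.98e-07) and 0.97 ± 0.18 at the low dose (adjusted p = 0.000532), and the step of 0.50 ± 0.18 between the doses did not pass (adjusted p = 0.066). On day 28 Npc2 read 1.44, 2.36, 1.75, 1.78 and 2.35 in air rats, 2.54, 2.19, 1.85, 2.39 and 2.31 at the low dose and 2.47, 2.55, 2.86, 2.16 and 2.16 at the high dose, and the high-dose difference was 0.51 ± 0.18 (adjusted p = 0.217).

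Npc1, the membrane partner of Npc2, rose by 0.63 ± 0.18 (adjusted p = 0.00602), with the second probe at 0.66 ± 0.14, and this call did not pass with median centring. Psap, the precursor of the saposins that help degrade sphingolipids, rose by 0.74 ± 0.14 (adjusted p = 0.000174). Asah1, acid ceramidase, differed by 0.19 ± 0.17 and did not pass.

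Lipa, the acid lipase that frees cholesterol and fatty acids from lipoprotein lipids, was the only member that fell at the high dose on day 6. It and Ppt1 are given per rat because of their values. Lipa read 0.39, 0.11, 0.66, 0.55 and 0.76 in air rats, 0.03, 0.47, -0.18, -0.15 and 0.60 at the low dose, and -0.13, -0.60, 0.17, -0.35 and 0.02 at the high dose. High-dose rat 77 alone lay above the lowest air rat, and the difference was -0.67 ± 0.17 (adjusted p = 0.00275). The count of members called lower in this comparison was 2, instead of 1, on the Cy5 channel alone and in the authors' deposited table. It was also 2 when only the compared groups were fitted and without the 4 rats with heart muscle signal. On day 28 Lipa ran from -0.09 to 0.59 in air rats, from -0.03 to 0.67 at the low dose and from 0.26 to 0.70 at the high dose.

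Ppt1, the thioesterase that removes palmitate from proteins, showed the same sign but did not pass at the high dose on day 6 (-0.53 ± 0.22, adjusted p = 0.0675), although it did without the 4 rats with heart muscle signal (adjusted p = 0.0432). Its air rats read 0.36, 0.30, 0.49, 0.04 and 0.31, its low-dose rats -0.13, 0.25, -0.82, -0.62 and 0.47 and its high-dose rats -0.27, -0.65, 0.06, -0.66 and 0.39. On day 28 the order of the group means was turned: -0.17, 0.32, -0.34, -0.03 and 0.39 in air rats, 0.69, 0.17, 0.13, 0.66 and 0.95 at the low dose and 0.53, 0.75, 1.18, 0.79 and 0.42 at the high dose. All 5 high-dose rats of day 28 lay above all 5 air rats, the only member for which this was so, and 0.684% of all genes showed it. The difference of 0.70 ± 0.22 did not pass (adjusted p = 0.18).

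Among the membrane proteins, Cd63, a tetraspanin of late endosomes and lysosomes, rose by 0.60 ± 0.15 (adjusted p = 0.00176) and Lamp2, a heavily glycosylated coat protein of the lysosomal membrane, by 0.73 ± 0.26 (adjusted p = 0.0298). The call of Lamp2 was lost with median centring, in the authors' deposited table and without the 4 rats with heart muscle signal. Its relative Lamp1 read 0.43, 0.63, 0.48, 0.26 and 0.44 in air rats and 0.93, 0.84, 1.12, 0.72 and 0.93 at the high dose. Those groups did not overlap. The difference of 0.47 ± 0.20 did not pass in the fit over all 6 groups (adjusted p = 0.0728) and passed when only the compared groups were fitted (adjusted p = 0.00187); the SD of Lamp1 was 0.13 and 0.15 in these groups and 0.36 to 0.53 on day 28. Mcoln1, the calcium channel of the lysosomal membrane, differed by -0.11 ± 0.12 and did not pass. The acid phosphatases Acp2 and Acp5 differed by 0.14 ± 0.24 and -0.18 ± 0.20, and neither passed.

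Lamp2, Lamp1 and Ctsz also varied with the brightness of the array. The 4 arrays with a median Cy5 intensity under 250 belonged to air rats 6 and 9, low-dose rat 54 and high-dose rat 84, all of day 28. On these 4 arrays the mean was -1.33 for Lamp2, -0.35 for Lamp1 and -1.99 for Ctsz, against -0.46, 0.40 and -1.14 on the other 11 arrays of that day. In 27 of the 38 members the 4 dim arrays had the lower mean, with a median difference of -0.36 over those 27 and of -0.18 over all 38. No share over all genes is given for this. All 4 dim arrays lay below the other 11 also for Atp6v0d1, Asah1, Hexa and Lgmn. Atp6ap1 went the other way, with a mean higher by 0.48 on the dim arrays. The median intensities of the day-6 groups overlapped, at 322 to 409 for air, 301 to 432 for the low dose and 288 to 385 for the high dose. With the brightness as a covariate, chosen after seeing the data, 26 members were called at the high dose on day 6, the 24 called without it among them. Without the 4 dim arrays 25 were called, again with all 24.

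**Figure D3:**
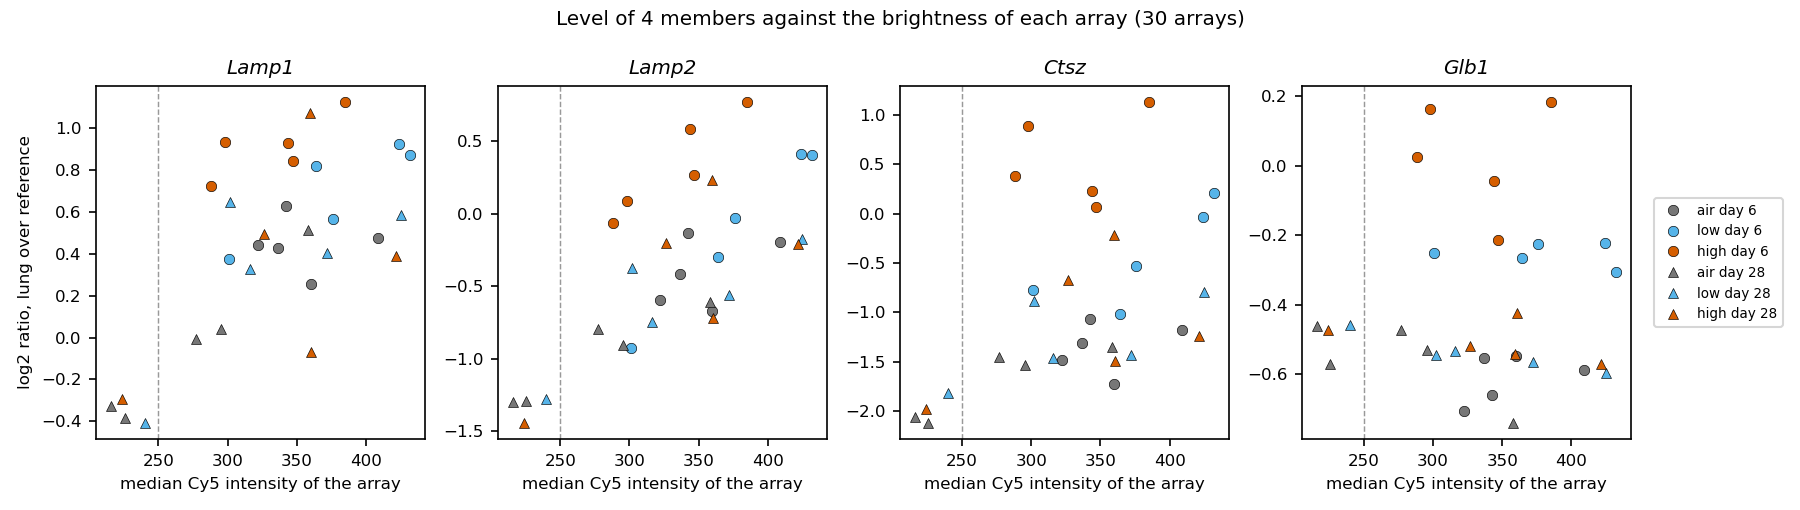
Log2 ratio of lung over reference (y axis) against the median Cy5 intensity of the array (x axis) for Lamp1, Lamp2, Ctsz and Glb1, 1 point per rat, coloured by dose and shaped by day (circles day 6, triangles day 28). Left of the dashed line at 250 lie 4 arrays of day 28, which have the 4 lowest values of Lamp1, Lamp2 and Ctsz, while Glb1 on them lies among the other values of that day.

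The proton pump is built from a cytosolic sector that splits ATP and a membrane sector that carries the protons. Of its 8 members 5 rose at the high dose on day 6 and none fell. The largest rise was in Atp6v1b2, the B2 subunit of the ATP-splitting sector, which read -0.09, 0.01, -0.05, 0.01 and 0.14 in air rats, 0.72, 0.52, 0.20, 0.17 and 0.50 at the low dose and 0.79, 0.46, 1.49, 1.26 and 1.89 at the high dose. Each of the exposed rats read above the air range, and the doses overlapped. The difference was 1.18 ± 0.17 at the high dose (2.26-fold, adjusted p = 4.54e-06), 0.42 ± 0.17 at the low dose (adjusted p = 0.153) and 0.75 ± 0.17 between the doses (adjusted p = 0.00388). On day 28 the ranges were -0.05 to 0.41 in air rats, 0.06 to 0.26 at the low dose and -0.32 to 0.35 at the high dose.

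Members of both sectors rose. Atp6v0a1, an isoform of the large membrane-sector subunit, rose by 0.82 ± 0.13 at the high dose (adjusted p = 1.52e-05) and by 0.44 ± 0.13 at the low dose (adjusted p = 0.0421). Smaller rises passed for the membrane-sector subunit Atp6v0d1 (0.51 ± 0.20, adjusted p = 0.041), the catalytic subunit Atp6v1a (0.41 ± 0.14, adjusted p = 0.0183) and the regulatory subunit Atp6v1h (0.35 ± 0.10, adjusted p = 0.0049). None of these 3 passed with median centring, and Atp6v0d1 did not pass without the rats with heart muscle signal. Atp6v1c1, a subunit of the cytosolic sector, differed by 0.29 ± 0.13, Atp6v0d2, the isoform of the d subunit known from osteoclasts, by 0.07 ± 0.13, and the accessory protein Atp6ap1 by 0.06 ± 0.16, and none passed. Atp6v0d2 was dim, with a mean Cy5 intensity of 124, and was above background on 27 of 30 arrays. The second probe of Atp6v1a also passed at the high dose on day 6 (0.28 ± 0.08, adjusted p = 0.01). At the high dose on day 28 it gave 0.29 ± 0.08, against -0.11 ± 0.14 for the probe used here. The difference between days was 0.01 ± 0.12 on the second probe and -0.52 ± 0.19 on the probe used. None of these later values passed.

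Tfeb did not pass at the high dose. It read 0.21, 0.07, 0.31, 0.38 and 0.28 in air rats, -0.04, -0.01, 0.17, -0.11 and -0.01 at the low dose and 0.15, 0.10, 0.13, 0.21 and 0.29 at the high dose. The high-dose difference was -0.07 ± 0.08, and at the low dose Tfeb fell by 0.25 on the log2 scale (adjusted p = 0.0482), a call that was lost with median centring, without a filter on probes and when only these groups were fitted.

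Sqstm1, the receptor p62 that carries ubiquitinated cargo to autophagosomes, had 2 probes that disagreed. The brighter probe, used here for the gene, differed by 0.27 ± 0.13 at the high dose on day 6 (adjusted p = 0.108). The dimmer probe read -0.59, -0.73, -0.65, -1.15 and -0.73 in air rats, -0.58, -0.16, -0.48, -0.29 and -0.49 at the low dose and -0.10, -0.23, 0.43, 0.04 and 0.59 at the high dose. With no overlap between air and high dose, that probe differed by 0.91 ± 0.13 (adjusted p = 1.69e-06), by 0.55 ± 0.13 between the doses (adjusted p = 0.00397) and by -0.84 ± 0.18 between the effects of the days (adjusted p = 0.00128). The probes carry different accessions, and their mean Cy5 intensities were 11929 and 3067.

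**Figure D4:**
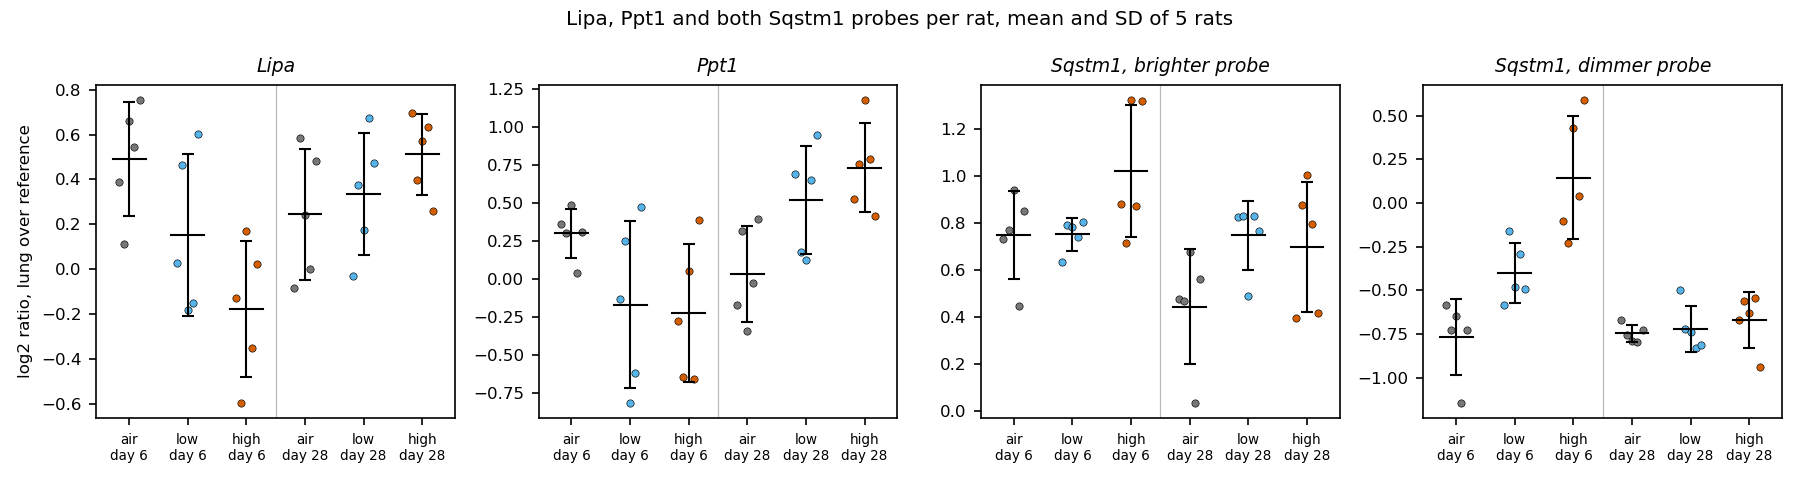
Log2 ratio of lung over reference (y axis) for each rat (points) in the 6 groups (x axis), with the mean and SD of 5 rats, for Lipa, Ppt1 and both probes of Sqstm1. Lipa and Ppt1 are lowest on average in the high-dose rats of day 6 and highest in those of day 28; the dimmer Sqstm1 probe separates high-dose from air rats on day 6 and the brighter does not.

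At the low dose on day 6, 8 members rose and 1 fell, against 4.96% of all genes called higher and 1.75% lower. The risers were Ctsc, Npc2, Glb1, Gusb, Lgmn, Gla, Ctsz and Atp6v0a1, by 0.30 to 0.97, and each had also risen at the high dose. In 11 members all low-dose rats lay above all air rats, which was so for 5.35% of all genes. With median centring 2 members were called instead of 9, namely Ctsc and Npc2, and 572 of all genes instead of 1236. Without the 4 rats with heart muscle signal Atp6v0a1 and Gla did not pass and Ctsk did (0.63 ± 0.15, adjusted p = 0.0111). Without air rat 1 or without low-dose rat 50 the count was 5, with 991 and 971 of all genes called.

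High-dose rats exceeded low-dose rats on day 6 in 12 members, against 8.01% of all genes called higher. These were Ctss, Lgmn, Ctsc, Atp6v1b2, Glb1, Psap, Ctsb, Ctsa, Ctsz, Man2b1, Gusb and Neu1. Of the 23 members that rose at the high dose, all 23 had a low-dose estimate between 0 and the high-dose estimate, as did 93% of all 3871 genes that rose there. Ctsc, Ctsz, Glb1, Gusb and Lgmn, 5 of the 23, were higher in all 3 comparisons of day 6, against 2.27% of all genes tested and 10.8% of all genes that rose at the high dose. The second probe of Glb1 passed only for the high dose against air. The comparisons share rats and are not independent. Without the rats with heart muscle signal, Ctsz and Neu1 did not pass between the doses. The count of 12 fell to 5 with median centring, to 6 when only these groups were fitted and to 7 without high-dose rat 77 or rat 79. Calls among all genes fell from 2186 to 1006, 1839, 1414 and 1353 in the same order. Rats 77 and 79 were the highest of their group for Ctss, Lgmn, Ctsb, Atp6v1b2 and Psap, and rat 76 the lowest.

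Within each of the 4 slides, every one of which held all 3 groups of day 6, all 24 calls of the high dose and all 9 of the low dose kept their direction. Of the 12 calls between the doses, 6 did so on every slide.

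On day 28 no member passed the threshold at either dose or between the doses. At the high dose 0 of 38 were called by limma, with 6 at an unadjusted p under 0.05, against 0.185% and 15.1% of all genes. At the low dose 0 were called, with 2 at an unadjusted p under 0.05, against 0.0109% and 5.95%. Between the doses 0 were called and 0 had such a p, against 0.141% and 2.61%. The members' median difference was 0.15 at the high dose and 0.08 at the low dose, with a median standard error of 0.15. Over the alternatives that keep the groups whole or leave out the dim or heart muscle arrays, the low-dose median ran from 0.01 with array brightness as a covariate to 0.27 with median centring, and the high-dose median from 0.09 to 0.17. Air rats of day 28 and day 6 differed in 0 members, with 9 at an unadjusted p under 0.05, against 2.95% and 24.2% of all genes. In that comparison 1 member was called in the authors' deposited table and 3 when only the air groups were fitted. Calls among all genes were 575 and 1186 there, against 544.

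The change between the days was tested directly as the difference between the exposure effects. At the high dose the effect was smaller on day 28 (more negative or less positive) in 14 members and greater in 2, against 11.2% and 5.49% of all genes called. The 14 were Glb1, Ctsc, Lgmn, Gusb, Atp6v1b2, Atp6v0a1, Ctsb, Psap, Npc2, Ctsa, Ctsz, Ctss, Gla and Man2b1, all risers of day 6, with differences between days from -1.54 ± 0.27 for Lgmn (adjusted p = 0.000142) to -0.36 ± 0.12 for Gla (adjusted p = 0.0437), whose value in the air rats of day 28 is a bound. The 2 others were Ppt1 (1.23 ± 0.32, adjusted p = 0.00707) and Lipa (0.94 ± 0.24, adjusted p = 0.00679). The count of 16 was 9 with median centring, and without the 4 rats with heart muscle signal Ctss, Ctsz, Gla and Man2b1 did not pass. With median centring 1627 of all genes were called, against 3083. The second probe of Glb1 did not pass (-0.46 ± 0.25, adjusted p = 0.223). For the other 9 risers of day 6, among them Lamp2, Hexa, Cd63 and Neu1, the difference between days did not pass. At the low dose Ctsc (-0.56 ± 0.14, adjusted p = 0.0316) and Gusb (-0.58 ± 0.16, adjusted p = 0.049) had a smaller effect on day 28, against 1.66% of all genes called lower, and neither call passed under median centring or in the authors' deposited table. Ctsc also did not pass without the rats with heart muscle signal (adjusted p = 0.0572). The second probe of Gusb gave -0.32 ± 0.15 and did not pass (adjusted p = 0.441).

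Most macrophage markers and all measured neutrophil and T cell markers rose at the high dose on day 6. Mast cell and B cell markers mostly did not. Of all genes, 21% were called higher and 15.5% lower in that comparison, and 4.96% were called higher at the low dose. Of 15 markers of macrophages and monocytes, 12 rose at the high dose on day 6, among them the receptors Siglec1 (3.67 ± 0.31) and Msr1 (1.97 ± 0.24), and 5 rose at the low dose. Their mean log2 ratio per rat ran from 0.89 to 1.08 in air rats, from 1.18 to 1.90 at the low dose and from 1.63 to 2.71 at the high dose. On day 28 it ran from 0.54 to 1.02, from 0.66 to 1.21 and from 0.77 to 1.29. In high-dose rats 75 to 79 it was 2.19, 1.63, 2.71, 2.13 and 2.48, with rats 77 and 79 highest and rat 76 lowest, as for the 5 members named above. This order was not particular to members that rose. Lipa, which fell, and Ctsd, which did not pass, also had rats 77 and 79 highest and rat 76 lowest. The risers Lamp2 and Hexa had rat 78 lowest. Marco was well above background on 0 of the 5 high-dose arrays of day 6, and Mrc1, Marco and Mertk did not pass.

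All 6 measured neutrophil markers rose at the high dose and 5 at the low dose, and their mean ran from 0.71 to 1.13 in air rats, from 2.23 to 2.77 at the low dose and from 2.73 to 3.16 at the high dose. In high-dose rats 75 to 79 the neutrophil mean was 2.90, 2.95, 2.94, 3.16 and 2.73, with rat 78 highest and rat 79 lowest. All 8 T cell markers rose at the high dose and 0 at the low dose. Their mean in rats 75 to 79 was 0.25, -0.03, 0.29, -0.20 and 0.18, with rat 77 highest and rat 78 lowest. Of 6 measured mast cell markers 0 rose and 1 fell at the high dose on day 6, with a median of -0.36. Of 4 measured B cell markers 1 rose and 0 fell, with a median of -0.05. Of 8 osteoclast markers, 3 had a named probe that passed the filter on dim probes. The defining ones Calcr, Dcstamp and Ocstamp did not, whether for lack of a named probe or for dim signal. Of those 3, Oscar (0.75 ± 0.16) and Mmp9 (0.29 ± 0.09) rose at the high dose on day 6, and Itgb3 fell by 0.19 on the log2 scale. Mmp9 and Itgb3 were dim, with mean Cy5 intensities of 108 and 121. On day 6 Mmp9 was above background on 2 of 5 air arrays and Itgb3 on 2 of 5 high-dose arrays. Markers of resident lung cells changed as well at the high dose on day 6, where 21% of all genes were called higher and 15.5% lower. Of 7 type I cell markers 0 rose and 4 fell, led by Cav1, the coat protein of caveolae (-1.60 ± 0.14), and of 7 endothelial markers 0 rose and 4 fell, led by the receptor Tek (-0.81 ± 0.16). Of 9 type II cell markers 3 rose, namely the aspartic protease Napsa (1.00 ± 0.16), Lamp3 (0.93 ± 0.29), a membrane protein related to Lamp1, and Lpcat1 (0.75 ± 0.18), and Etv5 fell by 0.93 on the log2 scale. The part of these cells in the levels of the lysosomal genes was not tested.

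Other genes of the pathway, taken by name, moved the same way in part. At the high dose on day 6, 21% of all genes were called higher and 15.5% lower. Of 30 measured further hydrolases, 17 rose and 3 fell at the high dose on day 6, with a median of 0.34. Ctsh, the aminopeptidase cathepsin H, rose by 2.23 ± 0.29 (adjusted p = 7.6e-07), and Naaa, an amidase that breaks down palmitoylethanolamide, fell by 1.98 on the log2 scale (adjusted p = 6.7e-06). Both passed at the low dose too, at 1.59 ± 0.29 and -1.04 ± 0.30. Of 23 further membrane proteins, 12 rose and 0 fell, led by Gpnmb (1.71 ± 0.33), a glycoprotein of lysosome-rich cells, and Cd68 (1.62 ± 0.32), which is also among the macrophage markers above. Of 12 further pump subunits, 6 rose and 0 fell, with Tcirg1, the a3 isoform of the large membrane-sector subunit, at 1.29 ± 0.19 and Atp6ap2, an accessory subunit, at 0.72 ± 0.16.

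Sorting, signalling and autophagy genes were counted in the same comparison, in which 21% of all genes were called higher and 15.5% lower. Of 11 genes for sorting enzymes to the lysosome, 4 rose and 2 fell, with progranulin (Grn) at 1.17 ± 0.14 and the sorting receptor Sort1 at -0.53 ± 0.20. Of 15 transcription factors and nutrient-sensing genes of the lysosomal surface, 5 rose and 0 fell, including Rragc (0.50 ± 0.09) and Lamtor5 (0.44 ± 0.10). Of 23 autophagy genes, 5 rose and 4 fell, with a median of 0.01, Atg7, which drives the conjugation of autophagy proteins, at 0.65 ± 0.13, and Map1lc3a, an LC3 protein of the autophagosome membrane, at -0.64 ± 0.10. At the high dose on day 28, 0 of the 114 genes of these 6 lists passed in limma, with 17 at an unadjusted p under 0.05. Of all genes, 0.185% passed there and 15.1% had such a p, so the 17 lie near the share of all genes.

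Because Tfeb and its relatives bind the letters CACGTG, the 250 bases before the RefSeq start of each gene (GRCr8) were searched for them. An entry was present for 29 of the 38 members. The letters, which read the same on both strands, were found in 6 of the 29 (20.7%), against 1591 of 27457 promoters of the same length (5.79%). A longer palindrome with these letters at its centre was searched as the CLEAR element. It was found in 0 of the 29, against 66 of the 27457 (0.24%). Only exact matches were counted, and variants that differ in some letters were not searched. The 0 therefore does not show that the members lack CLEAR sites. CACGTG stood 5 times in Lamp1, at 183, 167, 150, 65 and 38 bases before the start. It stood 2 times in Ctsd, and 1 time each in Atp6v0d1, Cd63, Glb1 and Mcoln1. By the call at the high dose on day 6, the letters were in 3 of 18 members that rose, in 0 of 1 that fell and in 3 of 10 that did not pass. A match is only a run of letters, and whether a factor binds there was not measured. Lamp1 and Ctsd are shown as the members with more than 1 match, Atp6v0d1 as a pump subunit with a single match and Ctsz as the member with the largest rise and no match. The sequences run 5′ to 3′ on the gene's strand, in lower case with CACGTG in capitals, from chr16:83075064-83075313 (minus strand, Lamp1), chr1:206968822-206969071 (minus, Ctsd), chr19:50357249-50357498 (minus, Atp6v0d1) and chr3:183653848-183654097 (minus, Ctsz).
Lamp1: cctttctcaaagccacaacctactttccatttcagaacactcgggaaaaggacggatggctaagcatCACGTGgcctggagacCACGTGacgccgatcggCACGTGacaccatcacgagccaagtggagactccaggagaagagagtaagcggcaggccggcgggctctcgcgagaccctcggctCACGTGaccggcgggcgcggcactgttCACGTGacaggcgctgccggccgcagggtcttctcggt
Ctsd: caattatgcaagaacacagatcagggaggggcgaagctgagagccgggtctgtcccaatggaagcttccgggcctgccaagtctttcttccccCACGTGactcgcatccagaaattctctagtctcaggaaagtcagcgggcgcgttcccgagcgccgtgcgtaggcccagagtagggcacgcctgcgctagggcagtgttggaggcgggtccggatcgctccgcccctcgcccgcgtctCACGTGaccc
Atp6v0d1: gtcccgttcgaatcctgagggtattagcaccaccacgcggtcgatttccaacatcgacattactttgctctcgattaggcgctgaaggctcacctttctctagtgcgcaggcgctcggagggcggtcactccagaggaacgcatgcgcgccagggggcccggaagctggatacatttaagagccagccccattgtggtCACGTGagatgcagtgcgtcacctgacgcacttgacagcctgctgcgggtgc
Ctsz: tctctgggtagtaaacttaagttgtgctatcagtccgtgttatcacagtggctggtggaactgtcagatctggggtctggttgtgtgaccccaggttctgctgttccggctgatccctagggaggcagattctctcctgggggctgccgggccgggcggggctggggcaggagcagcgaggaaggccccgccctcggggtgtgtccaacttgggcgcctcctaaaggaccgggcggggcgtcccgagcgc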

How the data were processed

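Lung RNA of 30 rats was hybridised to 30 two-colour Agilent arrays with 62976 spots each. Per the labels' protocols, 200 ng of RNA with an integrity number above 7 was labelled with Cy5. The labels name the Cy3 reference both as a mouse reference RNA and as a rat reference RNA of 14 cell lines; being the same on every array, it cancels in a difference between groups. The deposited scanner files hold spot intensity values from Agilent Feature Extraction 11.0.1.1, per the file headers. The authors' deposited value table holds 1 log2 ratio per probe and array; these log2 ratios correlated at 0.997 to 1.000 with loess log2 Cy5 over Cy3, over probes of an array, and no source used here gives the steps behind them. Rats labelled with a dose of 0 mg/m3 were taken as the air controls, whatever their treatment label says.

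Median intensities were corrected by normexp (offset 50) and then normalized by loess array by array (control and outlier spots at weight 0). Spots of a probe were averaged, and a probe was kept when its Cy5 exceeded background clearly, by the scanner's flag, on 5 or more of 30 arrays (20853 of 30367 probes). Accessions were matched to a RefSeq gene table (GRCr8), which named 18005 probes. The probe with the highest mean Cy5 stood for each gene; 5 members had several probes. Probe coordinates, which are of an older assembly, were not used. All 6 group means were fitted together (limma 3.58.1, R 4.3.3), with Benjamini-Hochberg adjustment in each of 9 comparisons. Each rat is 1 replicate. The number of arrays limits the precision. On simulated data for the high dose on day 6 (18399 genes), 43 of 67 genes changed by 0.5 (log2), 61 of 67 changed by 1 and 66 of 66 changed by 2 were called. Only these genes were changed, and each gene had the same spread in every group. In the real comparison 6719 genes were called and spreads differed between groups, so these shares are not its power.

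The members and lists were chosen with earlier results of these data known. Full values are given for the 8 members of smallest p for high dose against air on day 6 and those among the 4 smallest and past the threshold in another comparison, and of each further list the 2 called genes with the largest difference. Values of Lipa, Ppt1, Lamp1, Tfeb and the second Sqstm1 probe were added after they were seen. Alternatives were no background correction, median centring, the Cy5 channel alone, the authors' table, no filter, the mean over probes, the slide as a block, only the compared groups and each rat left out; array brightness, leaving out the 4 dim arrays or the 4 rats with heart muscle signal (mean log2 ratio above 1), and the promoter search were chosen after seeing the data.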

Additional observations from a re-analysis of the deposited data

Results flagged for a closer look

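Of 228 groups of 5 rats, 1 per member and group, 9 held a rat far from the other 4; chance flags about 1 in 20 groups. The log2 ratios of these rats were 0.12 for Atp6v0a1 in air rat 5 and -0.43 for Atp6v0d1 in air rat 4 of day 6. At the low dose on day 6 they were -1.02 for Atp6v0d2 in rat 48, 0.53 for Npc1 in rat 49 and 1.00 for Tpp1 in rat 49. On day 28 they were 1.64 for Ctsc and 0.49 for Sqstm1 in low-dose rat 54, whose array was among the 4 dim ones, and -0.32 for Atp6v1b2 and -0.10 for Ctsd in high-dose rat 83. Of these 9 values, 7 came from the 4 rats with the highest heart muscle markers (rats 4, 49, 83 and 54) and 1 from air rat 5, the next highest; the part of heart muscle RNA in them was not tested.

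The effect of exposure differed between day 28 and day 6 in 16 members at the high dose, by limma's test of that difference. It was smaller on day 28 by -1.54 in Lgmn, -1.30 in Ctsz, -1.22 in Atp6v1b2, -1.19 in Ctsb, -1.03 in Ctss, -0.97 in Npc2, -0.86 in Ctsc, -0.85 in Gusb, -0.84 in Atp6v0a1, -0.79 in Psap, -0.58 in Glb1, -0.54 in Ctsa, -0.39 in Man2b1 and -0.36 in Gla. It was greater by 1.23 in Ppt1 and 0.94 in Lipa. At the low dose the effect of day 28 was smaller by -0.56 in Ctsc and -0.58 in Gusb.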

How the results depend on the processing

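At the high dose on day 6 the count of called members was 17 to 26 over the 11 alternatives other than leaving out single rats, against 24, and 21 to 25 without single rats; 17 of the 24 calls passed in every alternative. At the low dose on day 6 it was 2 with median centring, against 9, and 5 to 9 without single rats. Between the doses on day 6 it was 5 with median centring and 6 with only the compared groups, against 12, and 7 to 15 without single rats, the highest without high-dose rat 76. For air rats of day 28 against day 6 it was 1 in the authors' table, 1 with median centring, 1 without the 4 rats with heart muscle signal and 3 with only the compared groups, against 0, and 0 to 3 without single rats (3 without air rat 8). For the difference between days at the high dose it was 9 with median centring, against 16, and 12 to 19 without single rats. For that at the low dose it was 1 with array brightness, 1 with the mean over probes, 1 with the slide as a block, 1 without the rats with heart muscle signal, 0 in the authors' table, 0 with median centring, 0 without the 4 dim arrays and 4 with only the compared groups, against 2, and 0 to 2 without single rats. The causes were not tested. Calls among all genes moved as well. With median centring they were 5244 at the high dose on day 6, against 6719. They were 572 at the low dose, against 1236, and 1006 between the doses, against 2186. Between days they were 1627 at the high dose, against 3083, and 159 at the low dose, against 362. For air rats they were 131 with median centring, 1186 with only the compared groups and 2502 without air rat 8, against 544. In the day-28 comparisons of dose no alternative called a member. No called value reversed. The share of all called genes that were higher was 73.9% at the low dose on day 6 but 62.6% on Cy5 alone, 67.5% between the doses but 53.8% in the authors' table, and 32.8% between days at the high dose but 50% there. Median centring moved the median of all genes by -0.12 for air rats between days, 0.12 at the low dose on day 28, -0.15 between doses on day 28 and 0.16 between days at the low dose. No paired analysis was possible because the groups share no replicate numbers. The signal limits Gla and Atp6v0d2, whose probes were near background.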
